A study of Sus scrofa with 12 samples.

Results

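The 8 genes studied here belong to endotoxin sensing and NF-kB control: TLR4, LY96, IRAK2, IRAK3, NFKBIA, CHUK, TNIP3 and TNFAIP6. They were taken by symbol, and all 8 were found among the 7480 gene symbols. Toll-like receptor 4, encoded by TLR4, recognises the lipopolysaccharide of Gram-negative bacteria such as Salmonella, and it does so only together with the small secreted protein MD-2, encoded by LY96. Once ligand is bound, adaptor proteins gather IRAK kinases, the IKK complex is switched on, and the inhibitor I-kappa-B alpha is destroyed, which frees NF-kB to enter the nucleus and switch on inflammatory genes. The same pathway induces its own brakes. In blood, monocytes and neutrophils carry most of the TLR4, so monocytes are the main source among mononuclear cells.

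The 12 libraries fell into 3 groups of 4. These were cells given a miR-124 sponge, a synthetic oligonucleotide meant to bind and so block that microRNA, together with Salmonella (here sponge plus Salmonella), cells given Salmonella alone, and non-treated controls. All are labelled as peripheral blood mononuclear cells (PBMC) of 4-week-old Duroc × Landrace × Yorkshire piglets, collected 12 h after treatment, and the series text names the bacterium as Salmonella Typhi. The design text counts 20 piglets, 10 of each sex, but ties no library to an animal, and the spread between libraries on which every p-value rests may therefore be technical. The design text reads as treatment of the piglets, whereas the title speaks of treated blood cells. Titles and column names of the first group mention miR-124 and Salmonella without the word sponge, which comes from the sample descriptions. The comparisons ask how the response to Salmonella looks in blood cells and how it differs with the sponge. No group received the sponge alone, and none received Salmonella with a control oligonucleotide. Blocking of miR-124 and delivery of an oligonucleotide as such therefore cannot be told apart.

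Values are those deposited by the authors, on a log scale taken as log2, so that 1 unit is a doubling. Column medians lay between 5.11 and 5.31, and the read depth behind the values is unknown. A set of 171 symbols expected to be silent in blood, such as olfactory receptors, averaged 4.62 with a 95th percentile of 5.24, and levels under 5.24 are treated as background. Only 43 of the 171 were found among the RefSeq pig gene names, so the background line rests mostly on symbols without a match there. Within the 4 sponge plus Salmonella columns 65.1% to 71.4% of values were shared with another gene of the column, against at most 0.0802% in the other 8 columns. Treatment and column type therefore cannot be told apart in comparisons with the sponge. Of the 32 values of the 8 genes in the sponge plus Salmonella columns, 9 were tied in this way, 4 of them those of TNIP3. Tests are limma fits over all genes with Benjamini-Hochberg adjusted p-values, and a gene is called at an adjusted p below 0.05.

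The endotoxin receptor genes and TNFAIP6 rose with Salmonella and were lower again with the sponge. IRAK2 rose with Salmonella and had nearly the same mean with and without the sponge. NFKBIA was lower in both treated groups than in controls. Against control libraries, Salmonella libraries had 5 of the 8 genes higher and 1 lower, where 15.7% of all genes were called higher and 17.9% lower (33.6% in all). With the sponge, 1 of the 8 was higher and 4 were lower than with Salmonella alone, where 11.9% of all genes were called higher and 13.2% lower (25% in all). Between sponge plus Salmonella and control libraries 3 were higher and 2 lower, where 17.9% of all genes were called higher and 23% lower (40.9% in all). The first and last comparisons share the control libraries, and the Salmonella libraries enter the first and the second. Values of the 2 groups did not overlap for 6 of the 8 genes in the first comparison (35.6% of all genes), for 6 in the second (23.8%) and for 5 in the third (39.7%). With so large a share of all genes called, the counts of members carry little by themselves, and the values follow gene by gene. Centring each column on its median moved the median difference of all genes between sponge plus Salmonella and control by -0.12, and the split of calls there to 1062 higher and 2569 lower, against 1336 and 1721 as deposited. For Salmonella over control it gave 965 higher and 1778 lower, against 1175 and 1338.

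**Figure D1:**
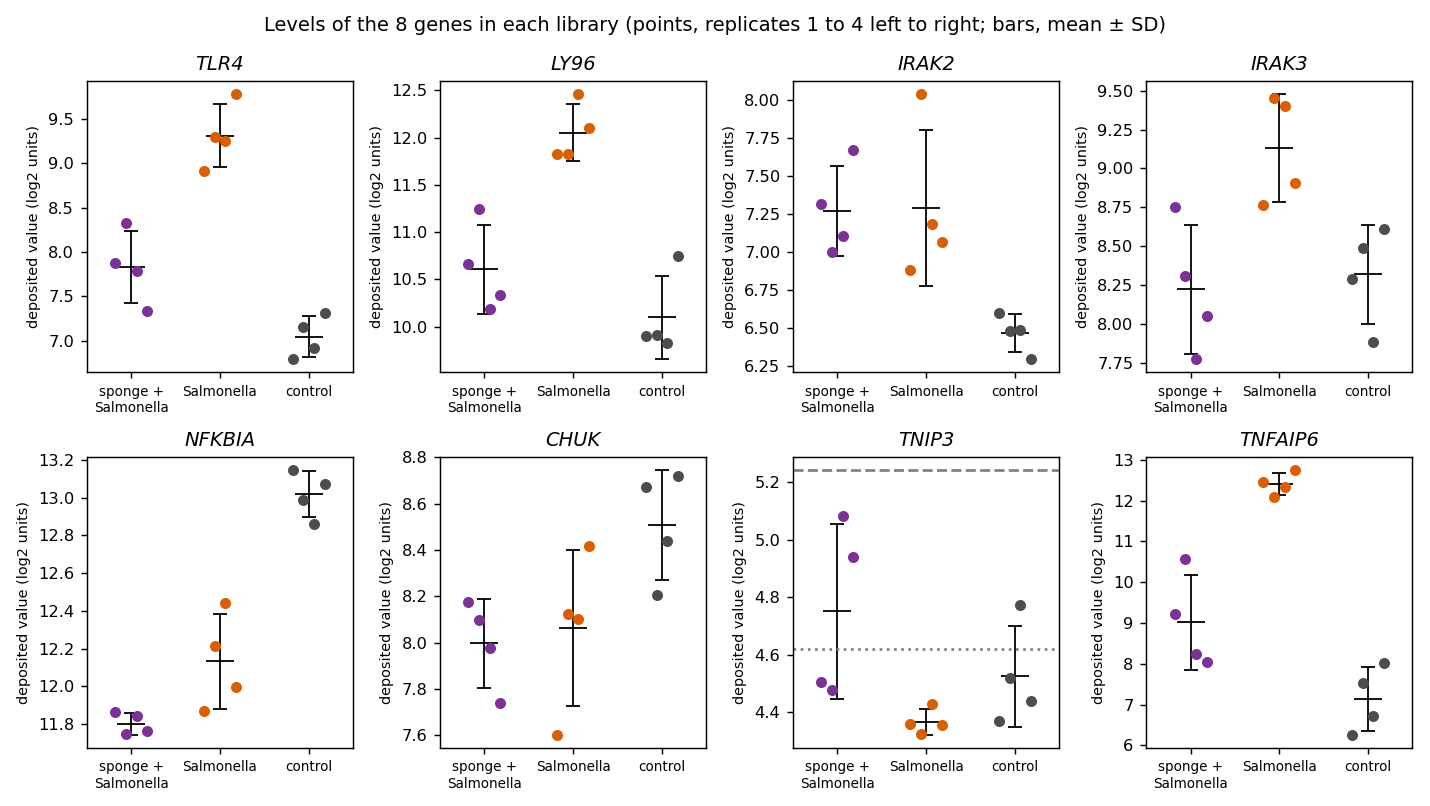
Deposited log2 values of the 8 genes in each library, with 1 panel per gene and its own vertical axis. Points are replicates 1 to 4 from left to right, and bars give the group mean ± SD (n = 4). In the TNIP3 panel the dotted line marks the silent-set mean of 4.62 and the dashed line its 95th percentile of 5.24, and all 12 points lie under the dashed line. TLR4, LY96 and TNFAIP6 are highest in the Salmonella libraries, and NFKBIA is highest in the controls.

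TLR4, on chromosome 1 (258044610 to 258054641 in Sscrofa11.1), encodes the signalling receptor for lipopolysaccharide. Its values were 7.88, 8.33, 7.79 and 7.33 log2 units in sponge plus Salmonella replicates 1 to 4, then 8.92, 9.30, 9.25 and 9.78 with Salmonella alone and 6.80, 7.15, 6.92 and 7.31 in controls. The 3 groups did not overlap: every Salmonella library stood above every sponge plus Salmonella library, and these in turn stood above every control, although sponge plus Salmonella replicate 4 (7.33) was close to control replicate 4 (7.31). The rise with Salmonella over control was 2.27 log2 units (95% interval 1.78 to 2.76, adjusted p = 6.3e-06 by limma), or 4.82-fold. With the sponge TLR4 fell by 1.48 against Salmonella alone (interval -1.97 to -0.99, adjusted p = 0.00061 by limma). It still exceeded controls by 0.79 (interval 0.30 to 1.28, adjusted p = 0.0134 by limma). All of these calls were kept when any 1 library was left out.

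LY96, on chromosome 4 (61919806 to 61950712), encodes MD-2, the co-receptor that holds the lipid part of lipopolysaccharide. In sponge plus Salmonella replicates 1 to 4 the values were 10.66, 11.25, 10.19 and 10.33 log2 units, with Salmonella alone 11.83, 11.82, 12.46 and 12.10, and in controls 9.90, 9.91, 9.82 and 10.75. Salmonella libraries were above all others. Control replicate 4 stood far above the other 3 controls, at 10.75 against 9.82 to 9.91, and above 3 of the 4 sponge plus Salmonella libraries. LY96 rose by 1.96 ± 0.25 (SE) with Salmonella over control (adjusted p = 4.5e-05 by limma) and fell by 1.45 ± 0.25 with the sponge against Salmonella (adjusted p = 0.00124 by limma). Between sponge plus Salmonella and control libraries the difference of 0.51 (interval -0.02 to 1.04) was not called (adjusted p = 0.116 by limma). Without control replicate 4 that difference was 0.73 and was called (adjusted p = 0.0280 by limma).

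IRAK2, on chromosome 13 (66350606 to 66416834), encodes an IL-1 receptor-associated kinase that sustains signalling downstream of Toll-like receptors. It measured 7.32, 7.0, 7.11 and 7.67 log2 units in sponge plus Salmonella replicates 1 to 4, next to 6.88, 8.04, 7.18 and 7.07 with Salmonella alone and 6.60, 6.48, 6.49 and 6.30 in controls. Every library that received Salmonella, with or without the sponge, was above every control, and these 2 treated groups overlapped. Salmonella replicate 2 was the highest library at 8.04. IRAK2 rose by 0.83 ± 0.25 with Salmonella over control (adjusted p = 0.0175 by limma), or 1.78-fold, and by 0.81 ± 0.25 with sponge plus Salmonella over control (adjusted p = 0.0169 by limma). The first call ended without Salmonella replicate 2 (0.58, adjusted p = 0.0569 by limma) and the second without sponge plus Salmonella replicate 4 (0.68, adjusted p = 0.0555 by limma). The difference between sponge plus Salmonella and Salmonella was -0.02, with an interval from -0.54 to 0.50 (adjusted p = 0.962 by limma), so changes of up to about 0.5 log2 units either way are not excluded.

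IRAK3, on chromosome 5 (30524704 to 30601067), encodes IRAK-M, a member of the same family that restrains Toll-like receptor signalling and is best known from monocytes and macrophages. Its values in sponge plus Salmonella replicates 1 to 4 were 8.75, 8.31, 7.78 and 8.05 log2 units. Salmonella alone gave 8.77, 9.45, 9.40 and 8.91, and controls gave 8.29, 8.49, 7.89 and 8.61. The Salmonella libraries were above all others, while the sponge plus Salmonella and control libraries overlapped. Salmonella replicate 1 (8.77) and sponge plus Salmonella replicate 1 (8.75) almost met. IRAK3 rose by 0.81 ± 0.23 with Salmonella over control (adjusted p = 0.0156 by limma), a call that ended without Salmonella replicate 2 (0.70, adjusted p = 0.0514 by limma) or replicate 3 (0.72, adjusted p = 0.0501 by limma). With the sponge it fell by 0.91 ± 0.23 against Salmonella (adjusted p = 0.0124 by limma), and this call was kept without any 1 library. Against controls, sponge plus Salmonella differed by -0.10 (interval -0.60 to 0.40, adjusted p = 0.761 by limma). Whether the sponge comparison differed between IRAK2 and IRAK3 was not tested.

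NFKBIA, on chromosome 7 (64508119 to 64510754), encodes I-kappa-B alpha, which holds NF-kB in the cytoplasm and is itself a well-known NF-kB target gene. It was measured at 11.86, 11.74, 11.84 and 11.76 log2 units in sponge plus Salmonella replicates 1 to 4, at 11.87, 12.21, 12.44 and 12.00 with Salmonella alone and at 13.15, 12.99, 12.86 and 13.07 in controls. Controls were above all treated libraries. The sponge plus Salmonella libraries lay within 0.12 log2 units of each other and just below the lowest Salmonella library. NFKBIA fell by 0.89 ± 0.14 with Salmonella against control (adjusted p = 0.000271 by limma) and differed by -1.21 ± 0.14 with sponge plus Salmonella against control (adjusted p = 6.3e-05 by limma). These calls were kept in every alternative fit, and the levels were 0.54 and 0.43 times those of controls. Between sponge plus Salmonella and Salmonella the difference of -0.33 (interval -0.63 to -0.03) was not called (adjusted p = 0.0976 by limma). It was called without Salmonella replicate 1 (-0.42, adjusted p = 0.0421 by limma). After quantile normalization of the columns that difference was -0.01 (adjusted p = 0.975 by limma).

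CHUK, on chromosome 14 (111316178 to 111351669), encodes IKK-alpha, a kinase subunit of the complex that phosphorylates I-kappa-B proteins. In sponge plus Salmonella replicates 1 to 4 it stood at 8.18, 8.10, 7.98 and 7.74 log2 units, with Salmonella alone at 7.60, 8.12, 8.10 and 8.42, and in controls at 8.67, 8.20, 8.44 and 8.72. All sponge plus Salmonella libraries were under all controls, though replicate 1 (8.18) was close to control replicate 2 (8.20), and 3 of the 4 Salmonella libraries were. Sponge plus Salmonella fell by 0.51 ± 0.19 against control (adjusted p = 0.0467 by limma). This call was lost in 6 of the 8 fits that left out 1 library, namely control replicates 1, 3 or 4 or sponge plus Salmonella replicates 2, 3 or 4 (adjusted p from 0.0613 to 0.127 by limma). With Salmonella the difference from control was -0.45 ± 0.19 (adjusted p = 0.0881 by limma), which was called only without Salmonella replicate 4 (-0.56, adjusted p = 0.0437 by limma). Sponge plus Salmonella minus Salmonella was -0.06, with an interval from -0.48 to 0.35 (adjusted p = 0.830 by limma).

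TNIP3, on chromosome 8 (102892427 to 102990902), encodes ABIN-3, an A20-binding protein described as an inhibitor of NF-kB activation in human cells. It gave 4.51, 4.48, 5.08 and 4.94 log2 units in sponge plus Salmonella replicates 1 to 4, 4.36, 4.32, 4.43 and 4.36 with Salmonella alone and 4.37, 4.52, 4.77 and 4.44 in controls. All 12 values were under 5.24, the 95th percentile of the silent set, and 9 were under its mean of 4.62. The sponge plus Salmonella libraries were above all Salmonella libraries, by 0.38 ± 0.13 (adjusted p = 0.0423 by limma). At background the size of this difference is uncertain. The call ended without sponge plus Salmonella replicates 3 or 4 or without any 1 of the 4 Salmonella libraries (adjusted p from 0.0653 to 0.112 by limma), and in 4 other alternative fits. With Salmonella the difference from control was -0.16 (interval -0.44 to 0.12, adjusted p = 0.373 by limma), and with sponge plus Salmonella it was 0.23 (interval -0.05 to 0.50, adjusted p = 0.176 by limma).

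TNFAIP6, on chromosome 15 (862013 to 881352), encodes TSG-6, a secreted hyaluronan-binding protein that is induced by TNF and IL-1 and dampens leukocyte recruitment. Its values were 9.22, 10.58, 8.24 and 8.03 log2 units in sponge plus Salmonella replicates 1 to 4, then 12.45, 12.09, 12.34 and 12.75 with Salmonella alone and 6.27, 7.52, 6.72 and 8.02 in controls. The Salmonella libraries sat within 0.65 log2 units of each other, whereas the sponge plus Salmonella libraries spread over 2.54 and the controls over 1.75. No groups overlapped, but sponge plus Salmonella replicate 4 (8.03) and control replicate 4 (8.02) were nearly equal. TNFAIP6 rose by 5.27 ± 0.47 with Salmonella over control (adjusted p = 2.3e-06 by limma), or 38.7-fold. With the sponge it fell by 3.39 ± 0.47 against Salmonella (adjusted p = 0.000333 by limma), a 10.5-fold lower level. Sponge plus Salmonella still exceeded control by 1.89 ± 0.47 (adjusted p = 0.00558 by limma), or 3.69-fold. These calls were kept without any 1 library, and without sponge plus Salmonella replicate 2 the last difference was 1.37 (adjusted p = 0.0135 by limma).

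**Figure D2:**
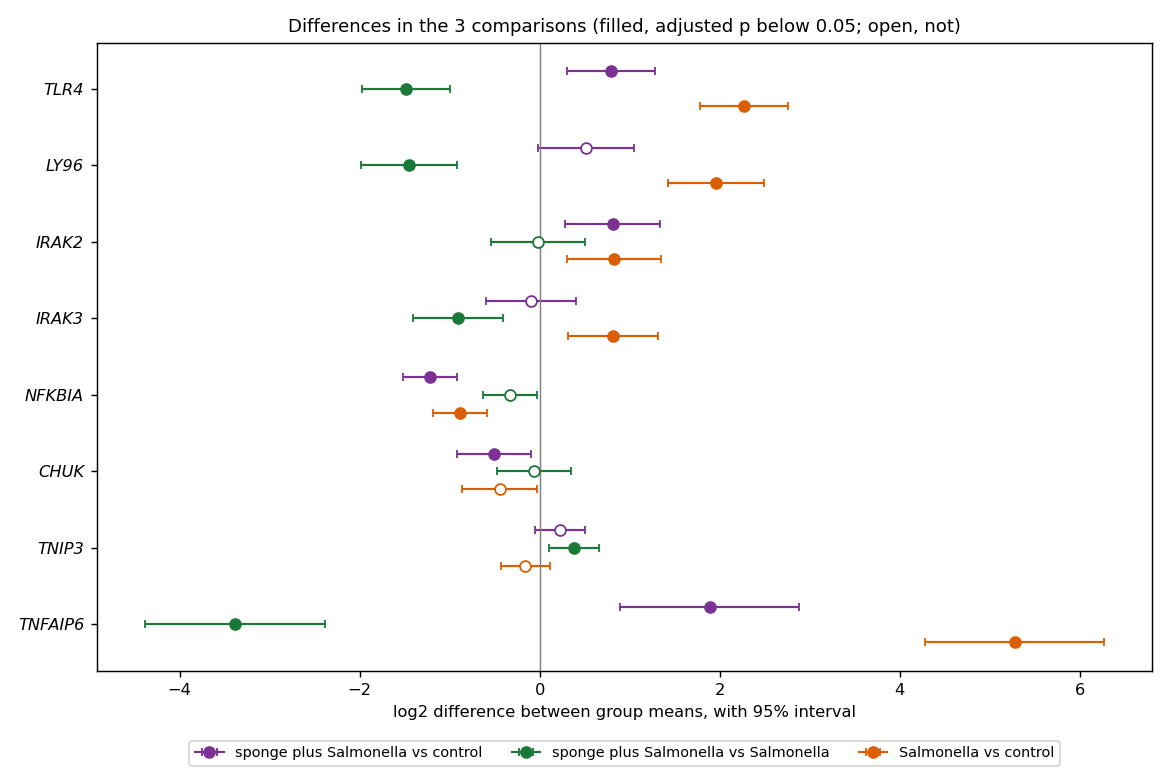
Log2 differences between group means for the 8 genes in the 3 comparisons, each as the first-named group minus the second, with 95% intervals from limma. Filled points have an adjusted p below 0.05 and open points do not. The green points (sponge plus Salmonella minus Salmonella) of TLR4, LY96, IRAK3 and TNFAIP6 lie left of 0, from -0.91 to -3.39, while that of IRAK2 lies at -0.02.

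The libraries within a group did not vary in the same way for all 8 genes. Among controls, replicate 4 was the highest for 5 of the 8 genes, TLR4, LY96, IRAK3, CHUK and TNFAIP6, and the lowest for IRAK2. Among sponge plus Salmonella libraries, replicate 2 was the highest for TLR4, LY96 and TNFAIP6 and the lowest for IRAK2, NFKBIA and TNIP3. Replicate 4 of that group was the highest for IRAK2 and the lowest for TLR4, CHUK and TNFAIP6. Salmonella replicate 1 was the lowest of its group for 5 of the 8 genes, TLR4, IRAK2, IRAK3, NFKBIA and CHUK.

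**Figure D3:**
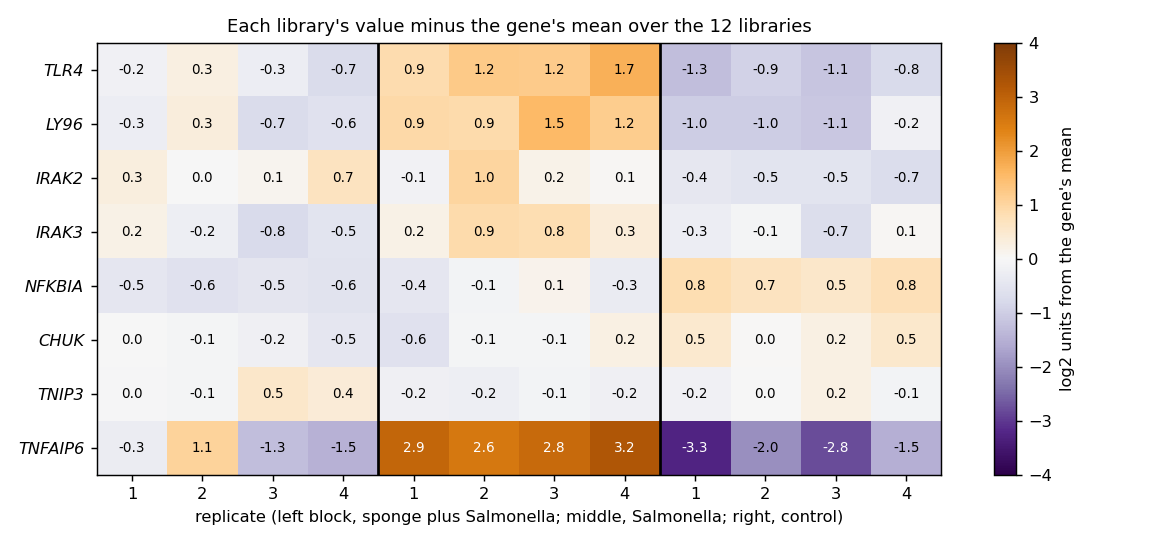
Each library's log2 value minus the gene's mean over all 12 libraries, with genes in rows and libraries in columns, grouped as sponge plus Salmonella, Salmonella and control from left to right. Orange is above the gene's mean and purple below. The widest swing is that of TNFAIP6, whose Salmonella libraries all stand well above its mean and whose controls all stand below it.

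Other genes of the pathway were taken from 6 lists by role, of which 45 of 107 genes were in the table. The counts below include the 8 genes. Over all genes 33.6% were called for Salmonella against control and 25% for sponge plus Salmonella against Salmonella. For sponge plus Salmonella against control the share was 40.9%. Counts in the pathway and marker lists near these shares carry little by themselves. Receptors moved with TLR4 only in part. Of 8 measured genes for lipopolysaccharide recognition and Toll-like receptors, 4 rose and 2 fell with Salmonella over control, with a median log2 difference of 0.89, against -0.02 over all genes. TLR7 and TLR8, receptors for single-stranded RNA in endosomes, rose by 2.31 ± 0.38 (adjusted p = 0.000335 by limma) and 1.71 ± 0.25 (adjusted p = 0.000153 by limma). CD180, a TLR4-related receptor prominent on B cells, fell by 1.14 ± 0.20 to 4.62 ± 0.24 in Salmonella libraries, against 5.76 ± 0.28 in controls (SD, n = 4; adjusted p = 0.000655 by limma), so that its Salmonella level is at background. TLR9, a receptor for bacterial DNA, fell by 0.73 ± 0.19 (adjusted p = 0.00838 by limma), to a level at background (4.73). With the sponge, 0 of the 8 were higher and 4 lower than with Salmonella, TLR4, LY96, TLR7 (-1.54 ± 0.38) and TLR8 (-0.89 ± 0.25), with a median of -0.71 against -0.04 over all genes. The call of TLR8 ended without sponge plus Salmonella replicate 4 or either of Salmonella replicates 2 and 4, with adjusted p from 0.0583 to 0.0648 by limma. Against control libraries, sponge plus Salmonella had 2 of the 8 higher and 3 lower (median 0.16 against -0.07 over all genes). TLR8 was higher by 0.82 ± 0.25, a call that ended without control replicate 2 (0.75, adjusted p = 0.0503 by limma) or sponge plus Salmonella replicate 3 (0.74, adjusted p = 0.0519 by limma), and CD180 was lower by -0.94 ± 0.20. LBP, at background, was also called lower, and TLR9 differed by -0.72 ± 0.19, at background with the sponge (4.74 ± 0.17).

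Among 7 measured adaptors and kinases between receptor and IKK, IRAK2 and TICAM2 rose with Salmonella over control and 0 fell (median 0.22). TICAM2 encodes TRAM, the bridging adaptor that TLR4 uses to signal from endosomes. It averaged 8.02 ± 0.76 with sponge plus Salmonella, 10.07 ± 0.26 with Salmonella alone and 8.40 ± 0.34 in controls (SD, n = 4). The rise over control was 1.67 ± 0.30 (adjusted p = 0.000754 by limma), and the fall with the sponge was the single call of the list in that comparison (-2.05 ± 0.30, adjusted p = 0.000477 by limma; median of the list -0.14). Between sponge plus Salmonella and control libraries IRAK2 was called higher and CHUK lower (median -0.13), and TICAM2 differed by -0.38 ± 0.30 (adjusted p = 0.329 by limma), but was called lower without sponge plus Salmonella replicate 1 (-0.73, adjusted p = 0.0205 by limma). The ubiquitin ligase gene TRAF6 and the kinase gene IRAK1, chosen after their values were seen, were not called in any comparison, with differences from -0.27 to -0.02.

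Of the NF-kB subunits and I-kappa-B proteins, 2 of 11 were measured. Besides NFKBIA this was NFKB1, which encodes the p105 precursor of the p50 subunit and was chosen after its values were seen. It averaged 11.58 with sponge plus Salmonella, 11.41 with Salmonella alone and 11.31 in controls and was not called in any comparison with the deposited values and a mean-variance trend. After quantile normalization it was called higher with sponge plus Salmonella than with Salmonella and than in controls, and with no trend it was called higher than in controls. The median of the pair was -0.39 for Salmonella over control, -0.08 for sponge plus Salmonella over Salmonella and -0.47 for sponge plus Salmonella over control.

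Of 9 measured brakes on the pathway, IRAK3, TRAFD1 and USP18 rose with Salmonella over control and 0 fell (median -0.19). In that comparison 15.7% of all genes were called higher and 17.9% lower. TRAFD1, a TRAF-type zinc finger protein that restrains Toll-like receptor signalling, averaged 7.82 ± 0.54 with sponge plus Salmonella, 10.09 ± 0.51 with Salmonella and 7.0 ± 0.27 in controls (SD, n = 4). Its rise with Salmonella was 3.09 ± 0.28 (adjusted p = 2.8e-06 by limma). USP18, a protease for ISG15 that restrains interferon signalling, rose by 1.63 ± 0.23 (adjusted p = 0.000111 by limma), with its control level (4.42) at background. With the sponge 5 of the 9 were lower than with Salmonella and TNIP3 was higher (median -0.84). TRAFD1 fell by 2.27 ± 0.28, USP18 by 1.17 ± 0.23 and TOLLIP, which encodes an IRAK-binding inhibitor, by 0.86 ± 0.22, next to IRAK3. The mean of USP18 with sponge plus Salmonella (4.87) was at background, so the size of its fall is uncertain. ZC3H12A, which encodes the RNA-degrading protein Regnase-1, also fell (-0.84 ± 0.26), but this call was lost in 5 of 8 fits without 1 library, namely sponge plus Salmonella replicates 1, 2 or 3 or replicates 2 or 4 of the Salmonella group, with adjusted p from 0.0587 to 0.0968 by limma. Between sponge plus Salmonella and control libraries, TOLLIP (-1.05 ± 0.22) and ZC3H12A (-1.02 ± 0.26) were lower and TRAFD1 was higher by 0.82 ± 0.28 (median -0.10), the last call being lost without control replicates 1, 2 or 3 or sponge plus Salmonella replicates 1 or 2 (adjusted p from 0.0538 to 0.0936 by limma) and after median centring.

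Of 12 measured genes that NF-kB induces, 5 rose (TNFAIP6, IL1B, CXCL2, PTGS2 and BCL2A1) and 2 fell (IL1A and CD83) with Salmonella over control (median 0.48). The 2 that fell became 1 in 7 of the 8 fits without 1 library and 0 without control replicate 1, and IL1A lost its call without that library (-0.24, adjusted p = 0.0509 by limma) and with no trend (-0.29, adjusted p = 0.0558 by limma). PTGS2, which encodes the prostaglandin synthase COX-2, averaged 7.21 ± 0.33 with sponge plus Salmonella, 7.36 ± 0.31 with Salmonella and 5.28 ± 0.60 in controls (SD, n = 4), and rose by 2.08 ± 0.29 with Salmonella (adjusted p = 9.4e-05 by limma). IL1B, which encodes interleukin-1 beta, rose by 1.60 ± 0.28 (adjusted p = 0.000564 by limma). CXCL2, a neutrophil chemokine gene, was called higher by 0.51 ± 0.10 with both group means (4.94 with Salmonella, 4.44 in controls) under 5.24. TNF was not called, at 7.94 with Salmonella against 7.84 in controls (0.09 ± 0.33, adjusted p = 0.853 by limma), and it was chosen after its values were seen. With the sponge, TNFAIP6 and CXCL2 were lower and IL1A higher than with Salmonella (median -0.21), and CXCL2 and IL1A lay under 5.24 in both groups. The call of IL1A ended without Salmonella replicate 2 (0.27, adjusted p = 0.0529 by limma) and in 2 other alternative fits. PTGS2 differed by -0.15 ± 0.29 and IL1B by -0.23 ± 0.28 between sponge plus Salmonella and Salmonella, neither called. Over control, sponge plus Salmonella had 3 of the 12 higher and 0 lower (median 0.07; 1 lower without sponge plus Salmonella replicate 1 or 3, and 2 lower after median centring), namely TNFAIP6, PTGS2 (1.93 ± 0.29) and IL1B (1.37 ± 0.28).

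In the hyaluronan matrix list around TNFAIP6, with 9 of 18 genes measured, TNFAIP6 was the single gene that rose with Salmonella over control, and 0 fell (median 0.08). Without Salmonella replicate 4, HYAL1 (0.40, adjusted p = 0.0259 by limma) and VCAN (0.70, adjusted p = 0.0357 by limma) were called higher as well. ITIH1 was called lower without control replicate 1 (-0.65, adjusted p = 0.0364 by limma) and after median centring or quantile normalization. With the sponge TNFAIP6 and HYAL1, a hyaluronan-degrading enzyme gene, were lower than with Salmonella (median -0.06). HYAL1 was at background in both groups (4.37 with sponge plus Salmonella, 4.92 with Salmonella). Over control, sponge plus Salmonella had TNFAIP6 and VCAN higher and ITIH1 lower (median -0.04). VCAN encodes versican, a hyaluronan-binding proteoglycan, and averaged 11.58 ± 0.18 with sponge plus Salmonella, 11.16 ± 0.46 with Salmonella and 10.62 ± 0.45 in controls (SD, n = 4). ITIH1, which encodes a heavy chain that TSG-6 transfers to hyaluronan, was lower by -0.59 ± 0.21, and the call was lost in 5 of 8 fits without 1 library, namely control replicates 3 or 4 or sponge plus Salmonella replicates 1, 3 or 4 (adjusted p from 0.0633 to 0.105 by limma). Of the 9 genes, 7 had means under 5.24.

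**Figure D4:**
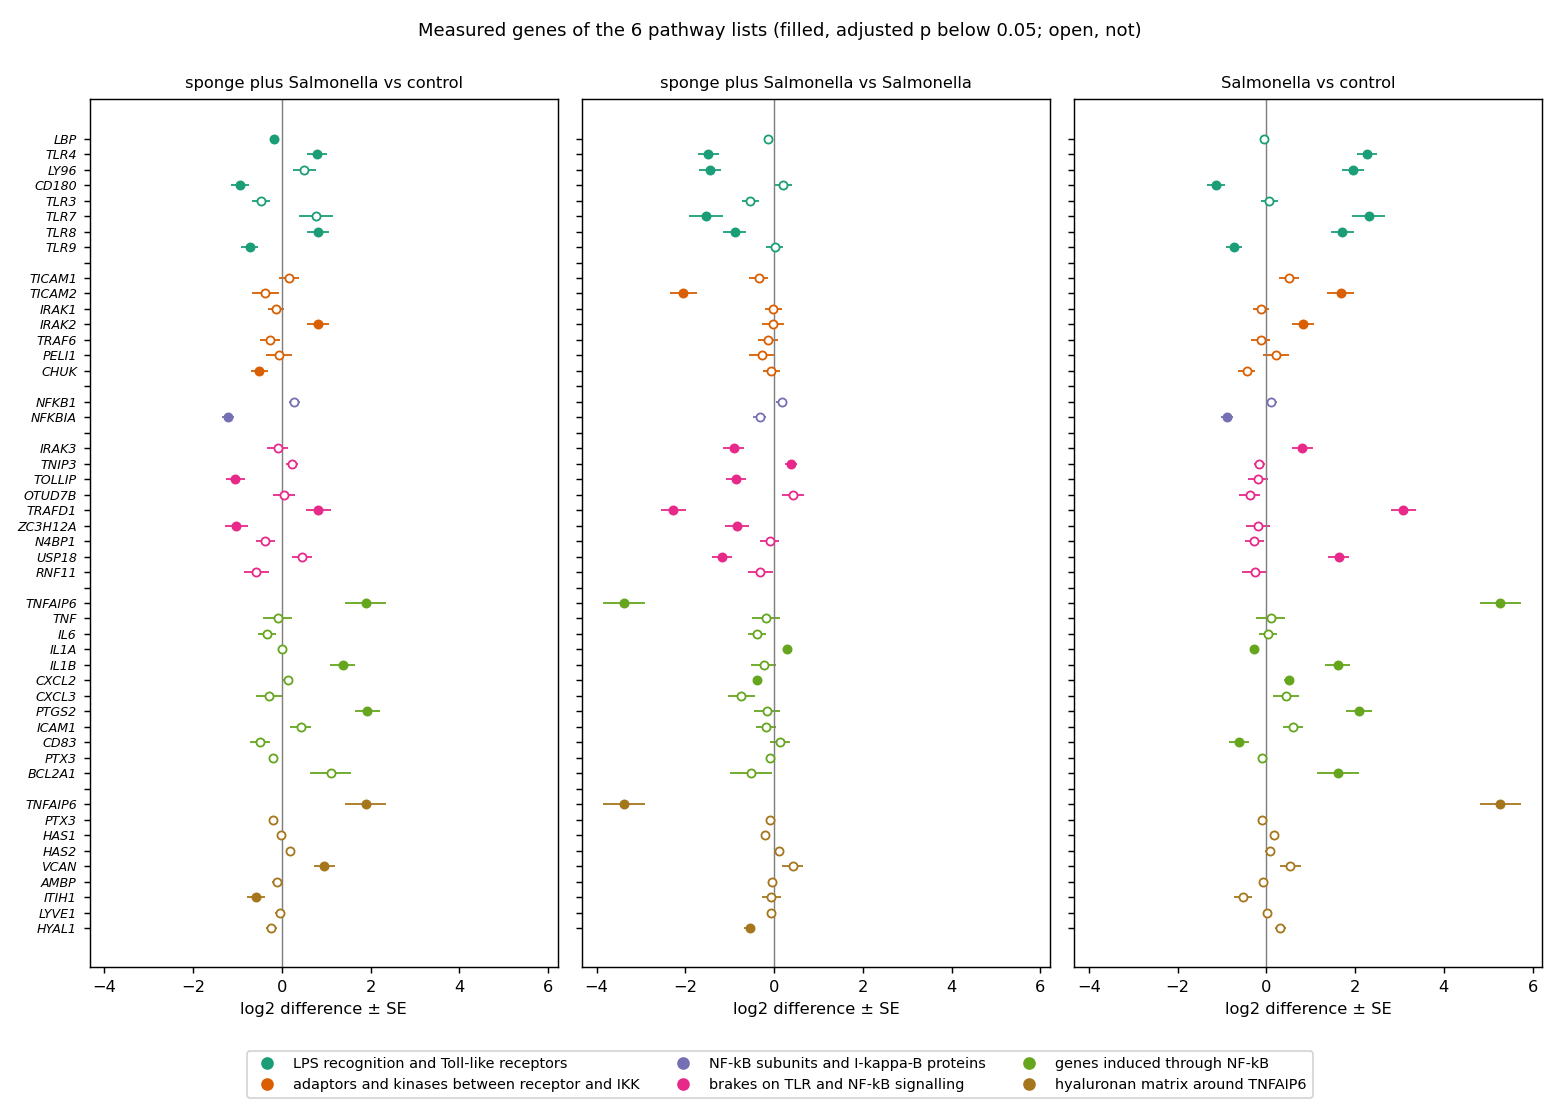
Log2 differences ± SE (limma) of the measured genes of the 6 pathway lists, by list from top to bottom, in the 3 comparisons, with TNFAIP6 and PTX3 shown in both lists that hold them. Filled points have an adjusted p below 0.05. In the middle panel (sponge plus Salmonella minus Salmonella) the filled points lie left of 0 except those of TNIP3 (0.38) and IL1A (0.29).

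For each of the 8 genes, the genes with the most similar pattern were those with the smallest root-mean-square difference of mean-centred log2 values over the 12 libraries, among 3697 genes with a mean above 5.24. The 12 points fall in 3 groups, so likeness mostly follows the group means. TLR4, which itself varied by 0.99 log2 units around its mean on this measure, was nearest to NADK (difference 0.23), SPCS3 (0.24) and VAMP3 (0.25). NADK encodes NAD kinase, and it averaged 8.30 ± 0.35 with sponge plus Salmonella, 9.63 ± 0.30 with Salmonella and 7.61 ± 0.36 in controls (SD, n = 4). LY96 shared VAMP3 (0.27) and SPCS3 (0.28) with TLR4 and had FLVCR2 (0.29) as the third. The nearest to TNFAIP6, which varied by 2.30, were the interferon-induced genes IFI6 (0.53) and IFIT1 (0.57), followed by SLC6A12 (0.64). IFI6 averaged 9.65 ± 0.98 with sponge plus Salmonella, 13.03 ± 0.41 with Salmonella and 8.42 ± 0.54 in controls.

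IRAK3, with a spread of 0.51, had PLEK (0.16), TMLHE (0.16) and CEBPB (0.19) as nearest genes. PLEK encodes the platelet and leukocyte protein pleckstrin and CEBPB a transcription factor of myeloid cells. Around IRAK2, whose own spread was 0.49, the nearest were GOLIM4 (0.25), GRK5 (0.25) and TOR3A (0.27), so likeness was weaker there. NFKBIA (spread 0.53) was followed closely by OAT (0.11), GAPDH (0.17) and SRI (0.17). GAPDH, a glycolytic enzyme gene often used as a reference gene, averaged 11.16 ± 0.09 with sponge plus Salmonella, 11.55 ± 0.25 with Salmonella and 12.10 ± 0.15 in controls (SD, n = 4). The genes nearest to CHUK (spread 0.32) were ANKRD49 (0.13), HERPUD1 (0.13) and STK24 (0.14). For TNIP3, which varied by only 0.24 at background, they were VIM (0.16), POLG2 (0.16) and KBTBD2 (0.16). Set against its own spread, the likeness for TNIP3 was weaker than that for IRAK2.

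Markers of blood cell types also differed between the groups, in directions that depended on the type. In bulk RNA, fewer cells of a type and less RNA per cell cannot be told apart. Of 15 monocyte markers 8 were measured, and 6 rose and 0 fell with Salmonella over control, 0 rose and 5 fell with the sponge against Salmonella, and 5 rose and 0 fell with sponge plus Salmonella over control (medians 1.62, -0.76 and 1.0). The 5 that fell with the sponge became 2 without sponge plus Salmonella replicate 4 or Salmonella replicate 3, and 3 without sponge plus Salmonella replicate 3 or Salmonella replicates 1 or 4. After quantile normalization 1 marker was higher with the sponge. Their mean level per library ran from 8.98 to 9.50 log2 units with sponge plus Salmonella, from 9.78 to 10.05 with Salmonella and from 7.93 to 8.60 in controls. Group means of TLR4, LY96, IRAK2 and TNFAIP6 had the same order, though IRAK2 differed by only -0.02 between the treated groups. The log2 of the summed level of the monocyte markers ran from 13.70 to 14.39, from 14.43 to 14.76 and from 13.80 to 14.02 in the same 3 groups. The list shares VCAN with the hyaluronan list. Of the 8 markers, 0 had a mean over the 12 libraries under 5.24. CCR2, a chemokine receptor of monocytes, averaged 7.10 ± 0.61 with sponge plus Salmonella, 8.32 ± 0.55 with Salmonella and 5.21 ± 0.54 in controls. Its control mean was under 5.24 and so at background. Control replicate 4, high for LY96, had a monocyte mean of 8.31, within the range of the other controls. The part of monocyte content in the differences of the 8 genes, and in the LY96 value of control replicate 4, was not tested.

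T and B cell markers went the other way. Of 12 measured T cell markers (of 18 listed), 0 rose and 11 fell with Salmonella over control, and 11 rose and 0 fell with the sponge against Salmonella. Their mean per library was 8.68 to 9.27 with sponge plus Salmonella, 7.73 to 8.30 with Salmonella and 9.19 to 9.54 in controls. All 4 measured B cell markers (of 10) fell with Salmonella and were higher with the sponge, with means of 8.21 to 8.71 with sponge plus Salmonella, 6.58 to 7.16 with Salmonella and 8.68 to 9.26 in controls. Of 6 natural killer cell markers (of 11), 0 rose and 5 fell with Salmonella over control, and 2 rose and 0 fell with the sponge against Salmonella. Their library means overlapped between the treated groups, at 8.99 to 9.64 with sponge plus Salmonella and 8.81 to 9.61 with Salmonella. In controls they were 10.40 to 10.94. Of 4 dendritic cell markers (of 8), 2 fell with Salmonella and 1 was higher with the sponge. Dendritic cell means were 6.58 to 6.92 with sponge plus Salmonella, 6.27 to 6.57 with Salmonella and 7.18 to 7.74 in controls. CD3D, a defining T cell gene chosen after its values were seen, stood at background in Salmonella (4.53) and control libraries (4.29), while CD2 stood at 9.81 and 11.44 in these groups. With sponge plus Salmonella CD3D averaged 5.34 and CD2 10.63. Against control, sponge plus Salmonella had 2 T cell markers higher and 6 lower, and 0 higher with 2 lower in the B cell, 5 lower in the natural killer cell and 2 lower in the dendritic cell list. Each of the counts of 2 for T, B and dendritic cells became 1 in 3 or more of the 8 fits without 1 library, as did the 2 natural killer cell markers that were higher with the sponge than with Salmonella.

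Cells that the label PBMC does not cover were also traced. Of 9 measured neutrophil markers (of 14), 2 rose and 2 fell with Salmonella over control, and 0 rose and 1 fell with the sponge. The 1 that fell with the sponge was MMP8, at background in both groups (4.24 with sponge plus Salmonella, 4.78 with Salmonella). The mean of the 9 neutrophil markers was 6.24 to 6.65 with sponge plus Salmonella, 6.35 to 7.82 with Salmonella and 6.36 to 6.87 in controls. The highest value was in Salmonella replicate 4, also the highest library for TLR4. Without that library the rise of TLR4 with Salmonella was 2.11 (adjusted p = 2.99e-05 by limma). The part of neutrophil content in that rise was not tested. Of the neutrophil markers that rose, 1 was left without Salmonella replicate 4 or control replicates 1 or 3, and 2 fell with the sponge without Salmonella replicate 2. Platelet markers (7 of 9 measured) had 5 higher and 0 lower with Salmonella and, with the sponge, 2 higher and 1 lower than with Salmonella. The 5 became 3 without Salmonella replicates 3 or 4 or control replicates 2 or 4. With the sponge the 2 became 1 without Salmonella replicate 2 or any 1 of sponge plus Salmonella replicates 2 to 4, and the 1 lower became 0 in 5 of 8 such fits. Erythroid markers (3 of 8 measured) had 1 higher and 0 lower with Salmonella and 0 higher and 3 lower with the sponge. The 1 became 0 without control replicate 1 or Salmonella replicate 3 and 3 with only the 2 groups compared. Their mean ran from 7.49 to 9.82 with sponge plus Salmonella, from 10.05 to 10.79 with Salmonella and from 8.85 to 9.77 in controls.

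**Figure D5:**
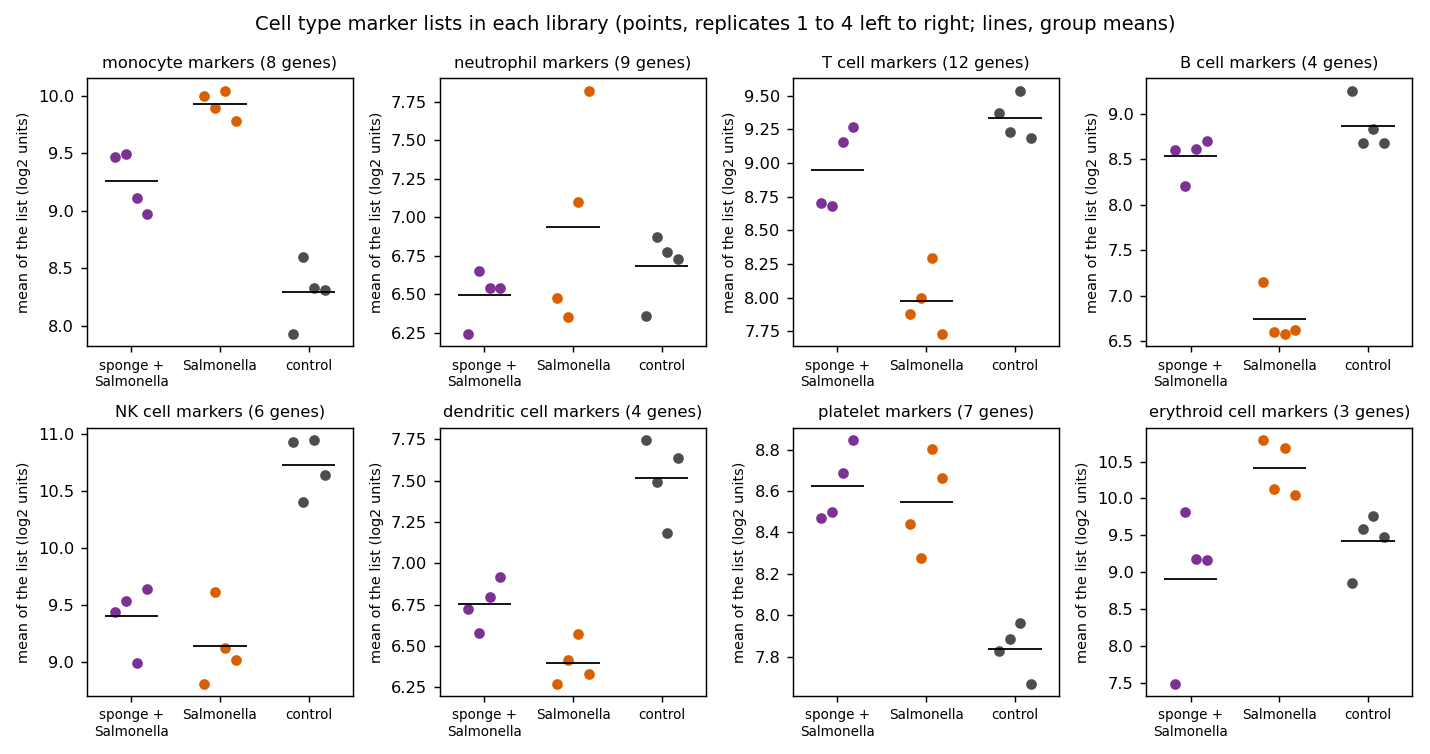
Mean log2 level of each cell type marker list in each library, with 1 panel per list and its own vertical axis. Points are replicates 1 to 4 from left to right and lines are group means. Monocyte markers are highest and T and B cell markers lowest in the Salmonella libraries, and the sponge plus Salmonella group means lie between Salmonella and control group means for these lists.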

How the data were processed

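RNA of the 12 libraries was extracted with a PAXgene kit (RNA integrity number above 8), made into TruSeq libraries and sequenced as single reads of 50 bases, per the labels' protocols. The submitters' processing notes name Bowtie, R 3.4.2 and the build Sscrofa11.1. How reads were counted and normalized, and why the table holds 7480 symbols, is not given in the sources used here. Each pair of columns among the 8 without the sponge shared 1696 to 1809 exact values. The columns may therefore have been put on a common scale before deposit, which was not tested. Median centring and quantile normalization were applied to the values as deposited. Per-gene values were deposited by the authors on a log scale, taken as log2 from their range of 2.13 to 15.01. They are not counts, so no count model was used, and depth is unknown. Of the symbols, 399 (5.33%) were absent from the RefSeq pig tables that gave the gene positions.

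Differences were tested with limma 3.58.1 in R 4.3.3, with all 12 libraries in 1 fit, group means, a mean-variance trend, Benjamini-Hochberg adjustment over all genes and no filter, after a check on simulated data. The 8 genes and the gene lists were chosen with earlier results of these data known, and no list was tested. Named besides the 8 were up to 3 called genes with the smallest p per pathway list and comparison. The 3 genes nearest in pattern to each of the 8 were named as well. For marker lists, up to 2 per list and comparison were picked by the same rule, but only some of them are described. Alternatives were a fit with no trend, robust variance, only the groups compared, a replicate block, median centring, quantile normalization, a filter above the silent set, leaving out each library, and an exact permutation test, whose smallest two-sided p with 4 against 4 is 0.0286.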

Additional observations from a re-analysis of the deposited data

Results flagged for a closer look

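Within groups of 4 libraries, single values far from the other 3 by Dixon's criterion were listed for the 8 genes and the other named genes. This was so in 10 of 216 groups (4.63%), and chance gives about 1 in 20. For the 8 genes it was 1 of 24 groups: LY96 in control replicate 4, at 10.75 log2 units, against 9.82 to 9.91 in the other controls. Without that library the LY96 difference between sponge plus Salmonella and control was called, as given above.

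Control replicate 4 also stood apart for IFIT1, at 9.87 against 7.94 to 8.20 in the other controls, and for GRK5, at 5.38 against 5.71 to 5.76. Control replicate 1 was low for PTGS2 (4.38 against 5.53 to 5.64) and high for CXCR5 (9.77 against 8.71 to 8.84). Salmonella replicate 1 was low for GRK5 (5.86 against 6.49 to 6.57) and STK24 (10.81 against 11.47 to 11.56). NADK was high in Salmonella replicate 4 (10.07 against 9.45 to 9.52), and TLR9 in Salmonella replicate 3 (5.32 against 4.46 to 4.60). CXCL2, at background, was low in sponge plus Salmonella replicate 2 (4.41 against 4.61 to 4.64).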

How the results depend on the processing

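No called difference of the 8 genes changed sign. Of those not called, IRAK2 (-0.16 to 0.23) and CHUK (-0.22 to 0.05), sponge plus Salmonella over Salmonella, and IRAK3 (-0.27 to 0.05), sponge plus Salmonella over control, changed sign when 1 library was left out. Keeping only the 3697 genes above the silent set, where fewer genes were tested and TNIP3 was not, gave 528 genes higher with the sponge than with Salmonella (888 over all genes), and 1922 called, 768 of them higher, for sponge plus Salmonella over control (3057 and 1336). The TNIP3 difference between sponge plus Salmonella and Salmonella lost its call with no trend (0.38, adjusted p = 0.0764 by limma), with only the 2 groups (0.38, 0.0628), after median centring (0.35, 0.0576) and after quantile normalization (0.35, 0.0563). CHUK, sponge plus Salmonella over control, lost its call with the replicate block (-0.51, 0.0792) and after quantile normalization (-0.46, 0.0542). LY96 in the same comparison gained one after quantile normalization (0.70, 0.0360). The cause of these changes was not tested. NFKBIA, sponge plus Salmonella over Salmonella, passed the exact permutation test (-0.33, p = 0.0286, the smallest it allows). The permutation result is not adjusted over genes, whereas calls are, so it is not a change of call. Before adjustment, the limma result for this difference also lay under 0.05. Leaving out 1 library gave ranges of 0.58 to 0.97 for IRAK2, 0.67 to 0.93 for IRAK3 and -0.56 to -0.29 for CHUK (Salmonella over control), of -0.42 to -0.22 for NFKBIA and 0.27 to 0.48 for TNIP3 (sponge plus Salmonella over Salmonella), and of 0.30 to 0.73 for LY96, 0.68 to 0.90 for IRAK2 and -0.61 to -0.42 for CHUK (sponge plus Salmonella over control). Counts of calls then ran from 1991 to 2419, 1325 to 2013 and 2441 to 2959 in these 3 comparisons. Deviations from group means gave no clear pairing by replicate number. Of 12 same-numbered pairs 2 correlated above 0.1, and 3 of 12 libraries correlated best with their own number. Across numbers, control replicate 3 and Salmonella replicate 1 correlated at 0.50. Whether libraries with different numbers share an animal was not tested. The replicate block gave 2371, 1706 and 2907 calls, against 2513, 1873 and 3057. Depth is unknown, and a level under 5.24 log2 units cannot be told from background.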

Other observations

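Each gene was also ranked within its own library, as the percent of genes with a lower value, which does not depend on the scale of a column. TNFAIP6 stood above 81.0% to 96.1% of genes with sponge plus Salmonella, 98.5% to 99.1% with Salmonella alone and 64.8% to 79.9% in controls. TLR4 stood above 74.3% to 83.4% with sponge plus Salmonella, 88.0% to 92.5% with Salmonella and 69.6% to 73.7% in controls. NFKBIA was among the highest genes throughout, above 98.4% to 98.7% with sponge plus Salmonella, 98.3% to 98.9% with Salmonella and 99.5% to 99.6% in controls. The ranks of NFKBIA in the 2 treated groups overlapped, although their log2 values did not.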
